A study of Mus musculus with 9 samples.

Results

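Tnfaip6 and 5 other genes of the hyaluronan matrix were followed by RNA sequencing in mesenchymal stromal cells of mouse bone marrow, a cell line kept with peritoneal fluid or with buffer. The members were taken by name from the authors' gene table: Tnfaip6, Has1, Has2, Cd44, Ptx3 and Vcan. All 6 were among the 21959 genes of the table, and all 6 were among the 10537 genes that passed the filter on low values, which asked for 3 or more libraries with an FPKM of 1 or higher. FPKM divides the fragments counted on a gene by its length in kilobases and by the depth of the library. The line is marked SV40 and BMMSC in the labels, and every library came from cells grown in DMEM/F12 with 10% serum and treated for 24 h. In the group called control PF the addition was peritoneal fluid (PF) of control mice. In the group called TNBS PF it was PF of mice that had received TNBS for 3 days, a hapten with which experimental colitis is commonly raised. In the group called PBS it was phosphate-buffered saline. Each group had 3 libraries. The sources used here do not give the strain, age and number of the fluid donors, or whether fluid was pooled. Nothing in the labels says that the libraries of a group were separate cultures, so the spread behind each p-value is that between these samples and may be technical.

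Hyaluronan is a long unbranched sugar chain that hyaluronan synthases in the plasma membrane extrude into the extracellular space. Secreted and surface proteins then organise it: TSG-6, the product of Tnfaip6, transfers heavy chains of inter-alpha-inhibitor onto the chain, the pentraxin PTX3 binds those complexes, the proteoglycan versican holds the chain through its N-terminal domain, and CD44 anchors it to cells. The same proteins assemble the matrix around the cumulus cells of the ovulating follicle. TSG-6 is also known as an anti-inflammatory protein secreted by mesenchymal stromal cells.

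Sequences of 4 promoters are shown because these genes carried the differences described further on: Tnfaip6 and Ptx3, which were both called higher in TNBS PF than in PBS, and Cd44 and Vcan, which were called in opposite directions in control PF. Each runs 5′ to 3′ on the strand of the gene, from 250 bases before to 50 bases after the RefSeq start site, in build GRCm38.p6. Capitals mark the AP-1 motif TGANTCA and the NF-kappaB consensus, searched on both strands, and lower case is the remaining sequence. The windows are chr2:52037863-52038162 (plus strand) for Tnfaip6, chr3:66219637-66219936 (plus strand) for Ptx3, chr2:102901616-102901915 (minus strand) for Cd44 and chr13:89742463-89742762 (minus strand) for Vcan.
Tnfaip6: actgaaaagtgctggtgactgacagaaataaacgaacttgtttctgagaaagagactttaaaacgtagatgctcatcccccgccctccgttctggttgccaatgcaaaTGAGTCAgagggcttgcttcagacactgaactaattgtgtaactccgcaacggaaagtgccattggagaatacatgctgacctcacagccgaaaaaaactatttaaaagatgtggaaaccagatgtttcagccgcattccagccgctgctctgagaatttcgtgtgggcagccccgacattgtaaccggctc
Ptx3: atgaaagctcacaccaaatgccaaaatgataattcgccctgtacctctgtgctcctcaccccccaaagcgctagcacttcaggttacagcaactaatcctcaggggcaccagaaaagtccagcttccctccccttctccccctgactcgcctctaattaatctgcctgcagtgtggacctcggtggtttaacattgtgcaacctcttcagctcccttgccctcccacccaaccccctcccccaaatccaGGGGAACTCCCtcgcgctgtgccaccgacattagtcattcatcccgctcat
Cd44: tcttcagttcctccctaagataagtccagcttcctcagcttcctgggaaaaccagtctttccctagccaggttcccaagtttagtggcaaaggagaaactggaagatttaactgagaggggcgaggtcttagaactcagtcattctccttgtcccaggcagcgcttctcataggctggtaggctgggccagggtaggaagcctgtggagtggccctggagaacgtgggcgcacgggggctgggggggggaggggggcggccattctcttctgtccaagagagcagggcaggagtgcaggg
Vcan: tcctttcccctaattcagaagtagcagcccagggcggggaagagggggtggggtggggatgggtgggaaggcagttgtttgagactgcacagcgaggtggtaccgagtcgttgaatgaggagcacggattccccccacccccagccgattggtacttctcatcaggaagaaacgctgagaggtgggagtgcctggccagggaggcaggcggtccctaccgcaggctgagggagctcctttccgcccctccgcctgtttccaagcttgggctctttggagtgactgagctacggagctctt
The Tnfaip6 window held TGAGTCA at -142 to -136 from the start site, and 7.81% of 32817 promoter windows of the same length held an AP-1 motif. In the Ptx3 window 2 overlapping matches to the NF-kappaB consensus, GGGGAACTCC and GGGAACTCCC, spanned the start site, from -1 to 10, and 8.46% of windows held such a match. The letters of these motifs were not found in the Cd44 and Vcan windows. The cAMP response element TGACGTCA, present in 1.79% of windows, was found at -83 to -76 of Has1 and in no window of the 4 genes printed. Has2 had no entry among the promoter sequences. These matches describe letters, and binding of a factor was not measured.

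The libraries held 17.9 to 25.6 M assigned fragments, as recovered from the deposited values. The 3 TNBS PF libraries were the deepest, at 22.9 to 25.6 M, against 17.9 to 21.5 M in the other 6, and the part of this gap in the results was not tested. Of 13 stromal markers 12 passed the filter, led by Itgb1, Col1a2 and Col1a1, while Lepr stayed at or under 0.0907 FPKM in every library. The summed FPKM of the 13, Cd44 among them, was 1519 to 1544 in TNBS PF, 1596 to 1615 in control PF and 1617 to 1684 in PBS. Markers of neutrophils (7 genes), of B and T cells (7) and of endothelium (5) were all under 1 FPKM in every library. Of 12 markers of macrophages and monocytes 10 were under 1 FPKM everywhere, the leukocyte gene Ptprc among them at 0.00306 FPKM at most. The other two were expressed in every library, Cd14 at 11.96 to 15.6 FPKM and Cd68 at 1.40 to 2.39 FPKM. The summed FPKM of the 12 was 15.3 to 17.4 in control PF, 16.3 to 18.2 in TNBS PF and 14.5 to 15.8 in PBS. The summed FPKM of 11 mesothelial markers was 52.5 to 57.8 in TNBS PF, 46.1 to 47.5 in control PF and 47.7 to 48.5 in PBS. Of the 11, 4 passed the filter: Msln, which made most of the sum at 35.2 to 44.9 FPKM, Slpi at 3.71 to 6.45, Krt19 at 2.96 to 6.70 and Krt18 at 1.37 to 2.46. The other 7 were under 1 FPKM in every library, among them Upk3b and Lrrn4 at or under 0.0395 FPKM and Muc16 at 0. The part of these marker sums in the results was not tested. In bulk RNA, a change in the share of cells that express a gene and a change in RNA per cell cannot be told apart.

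Cd44 was the most abundant of the 6 genes and Has1 the least. Means over the 9 libraries, in FPKM and hence per length, were 85.3 for Cd44, 31.6 for Ptx3, 17.8 for Tnfaip6, 16.8 for Vcan, 6.23 for Has2 and 1.32 for Has1. Cd44 lay above 95.6% of the tested genes, Tnfaip6 above 71.7% and Has1 above 4.5%. Tnfaip6 and Vcan were neighbours in this order whose levels were within their spread in 2 of the 3 groups. They were 19.2 ± 0.643 and 18.4 ± 1.01 FPKM (SD, n = 3 each) in control PF and 15.5 ± 0.816 and 15.9 ± 0.459 FPKM in PBS. In TNBS PF the Tnfaip6 level, 18.8 ± 0.307 FPKM, lay above that of Vcan, 16.0 ± 0.184 FPKM, in all 3 libraries. The other neighbours did not overlap in any group.

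**Figure D1:**
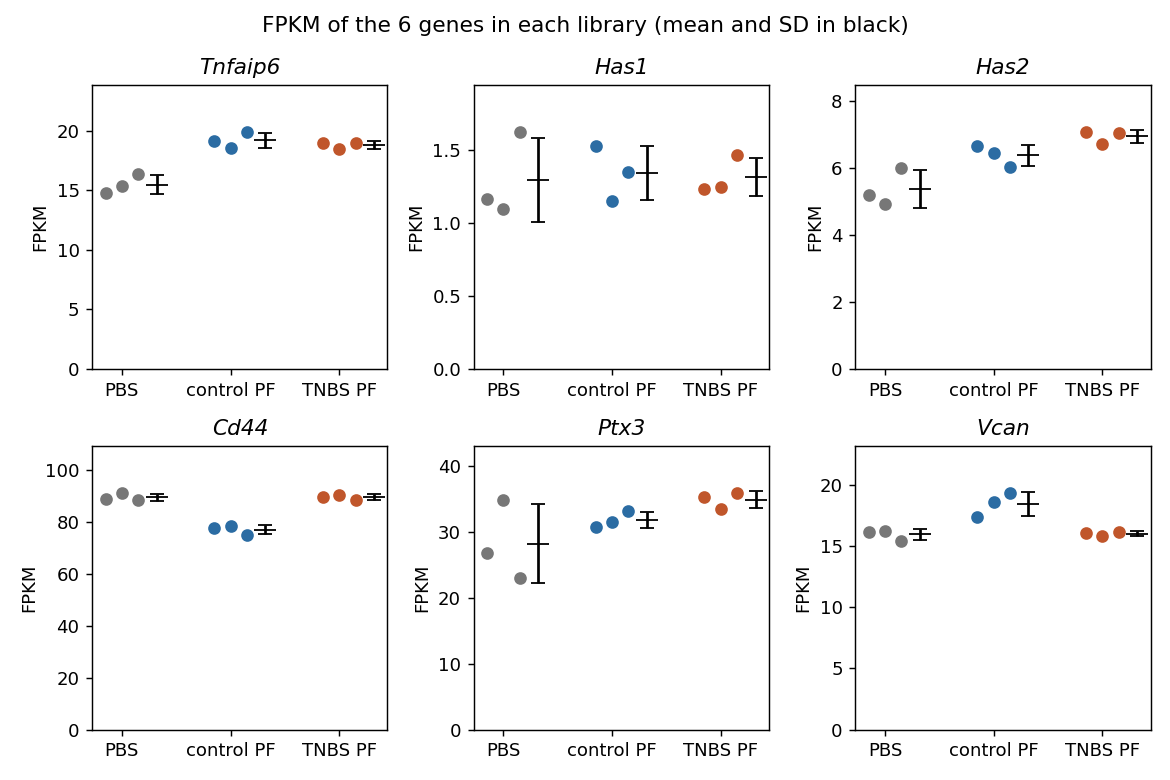
Level of each of the 6 genes in each library, in FPKM on axes that start at 0, with PBS in grey, control PF in blue and TNBS PF in orange, and the group mean with its SD in black. Tnfaip6 was lower in PBS (14.7 to 16.3) than in both fluids (18.4 to 19.9), Cd44 was lowest and Vcan highest in control PF, and the Ptx3 values in PBS spread from 23.0 to 34.8.

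Between the 2 fluids, where the question is what TNBS treatment of the donors changed, Cd44 rose and Vcan fell, while Tnfaip6, Has1, Has2 and Ptx3 did not pass the test. Thus 1 of 6 members was called higher and 1 lower, where 10.6% of all tested genes were called in either direction by limma at an adjusted p under 0.05. The values of 4 members did not overlap between the groups (Cd44, Vcan, Has2 and Ptx3), against 31.8% of all tested genes. Of the 4, 3 were higher and 1 lower, where 13.6% and 18.2% of tested genes were. The median log2 fold change of the 6 was 0.05, and that of all tested genes was −0.01.

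Control PF was set against PBS to ask what fluid of control donors does to the cells beyond buffer. Tnfaip6 and Vcan rose and Cd44 fell, which made 3 of 6 members called, where 2.15% of all tested genes were called. Groups did not overlap for 4 members (these 3 and Has2), against 18.6% of tested genes. Of these 4, 3 were higher (9.33% of tested genes) and 1 lower (9.32%). The median log2 fold change of the 6 was 0.19, against 0.0009 over all tested genes. TNBS PF was set against PBS to ask the same of fluid from TNBS mice. Tnfaip6, Has2 and Ptx3 were called higher, and 0 of the 6 lower by limma, by voom or at an unadjusted p under 0.05, where 7.8% of tested genes were called higher and 16.7% in either direction. Groups did not overlap for 2 members, Tnfaip6 and Has2, against 35.3% of tested genes. Both were higher, as were 15.5% of tested genes, while 19.7% were lower without overlap. The 6 had a median log2 fold change of 0.14, against −0.01 over all tested genes. Each pair of these comparisons shares a group of 3 libraries, so their values for a gene are not independent of each other. The members were chosen with earlier results of these data known. The shares called in the 3 comparisons thus describe these 6 genes and are no test of hyaluronan genes as a set.

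**Figure D2:**
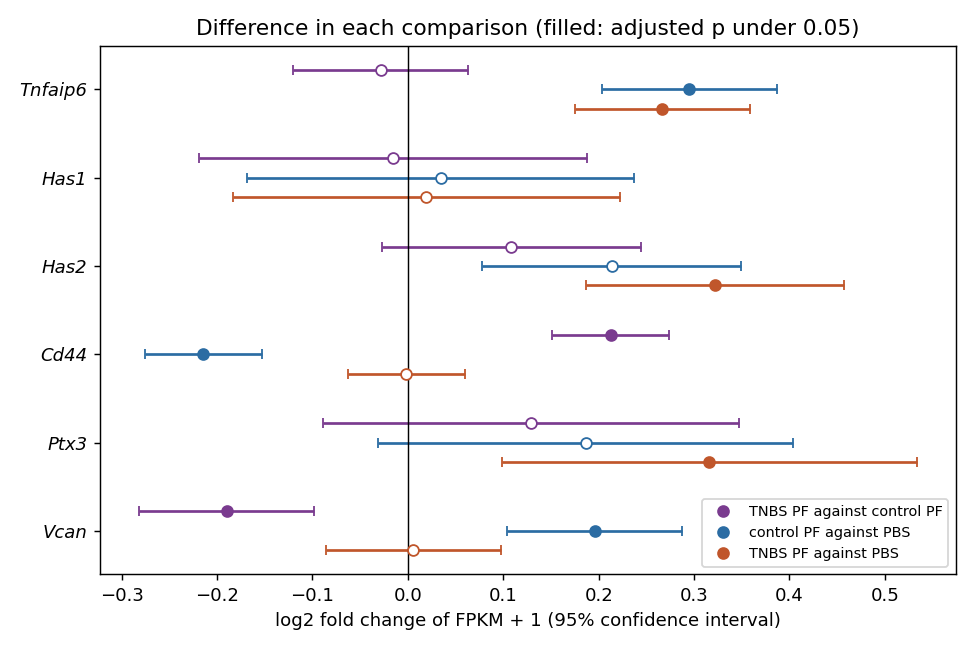
Log2 fold change of FPKM + 1 of the 6 genes in the 3 comparisons, with the 95% confidence interval of the limma fit, and filled points where the adjusted p was under 0.05. Tnfaip6 lay at 0.30 and 0.27 against PBS and at −0.03 between the fluids, whereas Cd44 lay at −0.21 in control PF against PBS, at 0.21 between the fluids and near 0 in TNBS PF against PBS.

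Has2 encodes the hyaluronan synthase known for its activity in mesenchymal cells and needed for embryonic heart development (ENSMUSG00000022367, chromosome 15, 56665627 to 56694539, minus strand, in mm10 as for the positions that follow). It measured 5.21, 4.92 and 5.99 FPKM in PBS 1 to 3, 6.65, 6.46 and 6.02 in control PF 1 to 3, and 7.07, 6.73 and 7.04 in TNBS PF 1 to 3. All 3 TNBS PF values were above all 6 others, and the lowest control PF value lay just above the highest PBS value. Has2 rose 1.29-fold in TNBS PF against PBS (log2 fold change 0.32, SE 0.0627, adjusted p = 0.00385 by limma), higher in all 3 libraries. In control PF against PBS the log2 fold change was 0.21 (adjusted p = 0.104), with a 95% confidence interval from 0.08 to 0.35 before adjustment for the number of genes. That adjusted p was 0.0371 without PBS 3, whose value was the highest of its group. Between TNBS PF and control PF the log2 fold change was 0.11 (adjusted p = 0.313, interval −0.03 to 0.24).

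The level of Has2 rested on 375 to 752 recovered fragments per library. Counting alone gives a coefficient of variation of 4.83% at the PBS mean and 3.72% at the TNBS PF mean, against a measured 10.3% and 2.7%. The antisense gene Has2os overlaps 182 bp, or 4.3%, of the Has2 exons. The sources used here do not give the strand of the libraries, so fragments of that stretch cannot be assigned to one gene or the other.

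Has1, a second hyaluronan synthase gene (ENSMUSG00000003665, chromosome 17, 17843323 to 17855205, minus strand), was expressed near the filter limit. Its values were 1.16, 1.10 and 1.62 FPKM in PBS, 1.53, 1.15 and 1.35 in control PF and 1.23, 1.25 and 1.47 in TNBS PF. The 3 groups overlapped throughout. Has1 passed in no comparison, with log2 fold changes of −0.02, 0.03 and 0.02 and adjusted p of 0.942, 0.908 and 0.915 in TNBS PF against control PF, control PF against PBS and TNBS PF against PBS. The 95% intervals, before adjustment for the number of genes, were −0.22 to 0.19, −0.17 to 0.24 and −0.18 to 0.22, so differences within those bounds remain compatible with the values. Between 89 and 152 fragments per library lay behind these values. The third mammalian synthase gene, Has3, was at 0.104 to 0.194 FPKM in every library and was not tested. Has2 exceeded Has1 by 3.69- to 5.73-fold in each of the 9 libraries.

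Tnfaip6 (ENSMUSG00000053475, chromosome 2, 52038009 to 52056686, plus strand) was higher with either fluid than with buffer. It measured 14.7, 15.3 and 16.3 FPKM in PBS, 19.1, 18.6 and 19.9 in control PF and 19.0, 18.4 and 19.0 in TNBS PF. Every value in either fluid was above all 3 PBS values, and the fluids overlapped each other. In control PF against PBS Tnfaip6 rose 1.24-fold (log2 fold change 0.30, SE 0.0423, adjusted p = 0.00317), which ranked 33 of 10537 genes by p. It rose 1.22-fold in TNBS PF against PBS (0.27, SE 0.0423, adjusted p = 0.00103). Between the fluids the log2 fold change was −0.03 (adjusted p = 0.727), with a 95% interval from −0.12 to 0.06. The values rested on 450 to 815 fragments, and the spread within groups, a coefficient of variation of 1.63 to 5.28%, was near the 3.56 to 4.49% that counting alone gives. Both calls held under all 20 alternatives that were tried.

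Ptx3, which encodes a long pentraxin of innate immunity and matrix assembly (ENSMUSG00000027832, chromosome 3, 66219910 to 66225805, plus strand), had its highest mean in TNBS PF. It measured 26.7, 34.8 and 23.0 FPKM in PBS, 30.6, 31.5 and 33.1 in control PF and 35.2, 33.3 and 35.8 in TNBS PF. PBS 2 lay above all 3 control PF values and above TNBS PF 2, whereas PBS 1 and PBS 3 lay below all 6 libraries with fluid. The SD of Ptx3 among the PBS libraries, 0.29 on the log2 scale, was larger than that of 99.4% of tested genes, and its coefficient of variation of 21.4% compares with 2.67% from counting alone.

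In TNBS PF against PBS Ptx3 was called 1.24-fold higher (log2 fold change 0.32, SE 0.101, adjusted p = 0.0482), although the groups overlapped. The call held in 6 of 20 alternatives, whose adjusted p ranged from 0.000196 to 0.158. Without PBS 2 the log2 fold change was 0.47 (adjusted p = 0.000196). It was 0.19 (adjusted p = 0.158) without PBS 3 and 0.29 (adjusted p = 0.131) without PBS 1. The adjusted p was 0.119, 0.0746 and 0.124 without TNBS PF 1, 2 and 3, and 0.0624, 0.0608 and 0.0598 without control PF 1, 2 and 3. Control PF against PBS gave 0.19 (adjusted p = 0.408), and without PBS 2 it gave 0.34 (adjusted p = 0.00623). TNBS PF against control PF gave 0.13 (adjusted p = 0.47, 95% interval −0.09 to 0.35), with all 3 TNBS PF values above the control PF values. With only those 2 groups in the fit, the adjusted p was 0.0496.

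Vcan encodes versican, a large chondroitin sulphate proteoglycan (ENSMUSG00000021614, chromosome 13, 89655312 to 89742509, minus strand). It measured 16.1, 16.2 and 15.4 FPKM in PBS, 17.3, 18.6 and 19.3 in control PF and 16.0, 15.8 and 16.2 in TNBS PF. All 3 control PF values were above all 6 others, and PBS and TNBS PF overlapped. Vcan rose 1.16-fold in control PF against PBS (log2 fold change 0.20, SE 0.0425, adjusted p = 0.0307). It fell by 0.19 in log2 terms in TNBS PF against control PF (adjusted p = 0.0124, SE 0.0425), and all 3 libraries were lower. The log2 fold change in TNBS PF against PBS was 0.01 (adjusted p = 0.945, 95% interval −0.09 to 0.10).

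The first of these Vcan calls held in 11 of 20 alternatives, with adjusted p from 0.000739 to 0.113. Leaving out control PF 2 or 3 gave 0.102 or 0.113, and leaving out PBS 1 or 3 gave 0.0589 or 0.113. The call between the fluids held in 18 of 20, with adjusted p of 0.0576 without control PF 3 and 0.0505 without TNBS PF 2. Between 4172 and 6009 fragments per library counted for Vcan, and the splice forms of versican, which differ in their chondroitin sulphate domains, are summed in the gene value.

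Cd44, the gene of the principal hyaluronan receptor and a usual marker of mesenchymal stromal cells, was lower with control PF than in the other groups (ENSMUSG00000005087, chromosome 2, 102811141 to 102901665, minus strand). It measured 88.9, 91.1 and 88.5 FPKM in PBS, 77.5, 78.5 and 75.0 in control PF and 89.4, 90.5 and 88.2 in TNBS PF. Control PF lay below all 6 other libraries, and PBS and TNBS PF overlapped. Cd44 fell by 0.21 in log2 terms in control PF against PBS (adjusted p = 0.00189, SE 0.0283), ranking 22 of 10537 genes by p. It rose 1.16-fold in TNBS PF against control PF (0.21, SE 0.0283, adjusted p = 0.000456), ranking 103. TNBS PF and PBS had means of 89.4 ± 1.13 and 89.5 ± 1.4 FPKM (SD, n = 3 each). Their log2 fold change was −0.001 (adjusted p = 0.98), with a 95% interval from −0.06 to 0.06. Both calls held under all 20 alternatives. The gene value sums the standard and variant forms of CD44.

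Beside the members, 34 further tested genes of hyaluronan biology were read from 7 lists covering 70 gene symbols, 69 of them in the table. Between the fluids, 2 of the 34 were higher with TNBS PF and 4 lower, where 5.15% and 5.45% of all tested genes were. Control PF against PBS had 1 higher and 3 lower, against 1.02% and 1.14%. TNBS PF against PBS had 1 higher and 9 lower, against 7.8% and 8.88%. The median log2 fold change of the 40 tested list genes, members included, was −0.04, 0.02 and −0.02 in the same order, and that of all tested genes was −0.01, 0.0009 and −0.01. Cd74, counted as lower in both comparisons with PBS, passed the filter only through its PBS values. The lists were chosen with earlier results of these data known, so the counts are descriptive.

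The sugar precursors of hyaluronan are UDP-glucuronate and UDP-N-acetylglucosamine. Ugdh, which makes the first, had means of 71.3, 73.0 and 73.7 FPKM in PBS, control PF and TNBS PF and passed in no comparison. Of the 6 tested precursor genes Gfpt1, which opens the hexosamine pathway, was the 1 that passed by limma. Voom also called Gfpt2, its paralogue, lower between the fluids (−0.15 and adjusted p = 0.0654 by limma), and Pgm3 had an unadjusted p under 0.05 in control PF against PBS (0.14, adjusted p = 0.203). Gfpt1 measured 21.3, 22.0 and 21.2 FPKM in TNBS PF, 23.7, 22.9 and 24.3 in control PF and 23.7, 23.5 and 23.2 in PBS, so that TNBS PF lay below all 6 others. Gfpt1 fell by 0.13 against control PF (adjusted p = 0.0272) and by 0.12 against PBS (adjusted p = 0.0289). The first call held in 13 of 20 alternatives and was lost without TNBS PF 1, TNBS PF 3, control PF 1 or control PF 3, at adjusted p of 0.086, 0.101, 0.0671 and 0.1. The second held in 12 of 20 and was lost at 0.0865, 0.0995, 0.0742, 0.0574 and 0.0509 without TNBS PF 1, TNBS PF 3 and PBS 1, 2 and 3. Of the 7 tested breakdown genes 0 passed in any comparison by limma, where 10.6%, 2.15% and 16.7% of all tested genes were called between the fluids, in control PF against PBS and in TNBS PF against PBS. A count of 0 among 7 is near those shares. At an unadjusted p under 0.05, 1 was lower in each comparison (Cemip2 between the fluids and Hexa in the other two), and voom called 1 lower between the fluids and 1 lower in TNBS PF against PBS. The list holds the hyaluronidase gene Hyal2 (5.68, 5.78 and 5.59 FPKM in PBS, control PF and TNBS PF) and the surface hyaluronidase gene Cemip2 (6.29, 6.8 and 5.79 FPKM).

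Among the other receptors, Tlr2 and Tlr4, innate receptors reported to respond to hyaluronan fragments, were lower with TNBS PF than with control PF. Tlr2 measured 14.1, 13.4 and 12.5 FPKM in PBS, 10.7, 11.1 and 10.9 in control PF and 8.79, 8.43 and 9.73 in TNBS PF, with no overlap between any 2 groups. Tlr2 fell by 0.52 in TNBS PF against PBS (adjusted p = 5.07e-05), by 0.27 in control PF against PBS (adjusted p = 0.0244) and by 0.25 between the fluids (adjusted p = 0.0102). The call in control PF against PBS held in 13 of 20 alternatives and was lost at adjusted p of 0.0918, 0.0617 and 0.0756 without control PF 1, 2 and 3 and 0.0857 without PBS 1. That between the fluids was lost at 0.0504 without TNBS PF 2. Tlr4 fell by 0.20 between the fluids (7.51 ± 0.138 against 8.8 ± 0.523 FPKM, adjusted p = 0.0177), a call lost at 0.0683, 0.0606 and 0.0649 without TNBS PF 2, TNBS PF 3 and control PF 1. Unlike Tlr2, Tlr4 passed in neither comparison with PBS, where it stood at 7.75 ± 0.197 FPKM. Its log2 fold change was −0.04 in TNBS PF against PBS (adjusted p = 0.616) and 0.16 in control PF against PBS (adjusted p = 0.109). Hmmr, the gene of the hyaluronan-mediated motility receptor, fell by 0.12 in TNBS PF against PBS (33.0 ± 0.45 against 35.9 ± 0.469 FPKM, adjusted p = 0.0231). This call held in 15 of 20 alternatives, with adjusted p of 0.0831, 0.0657 and 0.0725 without TNBS PF 1, TNBS PF 2 and PBS 3. Lyve1, Stab1 and Stab2, receptors of lymphatic and liver endothelium, were under the filter.

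Few of the other binding partners were expressed. Of the 18 genes of binding proteins and cross-linkers, 12 were under the filter, including aggrecan (Acan, listed at 0 in all 9 libraries), Bcan, Ncan and the link protein genes Hapln1 to Hapln4. Itih2, a heavy chain gene of inter-alpha-inhibitor, the donor that TSG-6 uses, was expressed at 4.63 ± 0.242 FPKM in PBS, 4.2 ± 0.427 in control PF and 3.85 ± 0.0721 in TNBS PF. It fell by 0.21 in TNBS PF against PBS (adjusted p = 0.0366), a call held in 12 of 19 alternatives and lost at adjusted p of 0.102, 0.0956, 0.073, 0.121 and 0.0624 without TNBS PF 1, 2 and 3, PBS 1 and PBS 2. Ambp, which encodes the light chain bikunin, was under the filter. Of the other pentraxin genes only Nptxr passed the filter, and it was called in 0 comparisons by limma or voom, and at an unadjusted p under 0.05 in 1, lower with TNBS PF than with control PF.

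Adamts4, a versican- and aggrecan-cleaving protease gene, was lower in TNBS PF. It measured 7.38, 7.96 and 8.36 FPKM there, 9.98, 10.6 and 10.4 in control PF and 11.1, 9.93 and 10.2 in PBS, with TNBS PF below all 6 others. Adamts4 fell by 0.35 against control PF (adjusted p = 0.00112) and by 0.36 against PBS (adjusted p = 0.000672), and both calls held in all 20 alternatives. Adamts1, Adamts5 and Adamts9, the other tested genes of the list, passed in no comparison, and Adamts5 had an unadjusted p under 0.05 in 1.

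Ezr, the gene of ezrin, which ties CD44 to actin, was highest in TNBS PF, at 26.3, 27.8 and 26.8 FPKM against 23.9, 24.2 and 23.3 in control PF and 21.4, 22.8 and 21.5 in PBS. Ezr rose by 0.17 against control PF (adjusted p = 0.00974, and 0.0511 without TNBS PF 2) and by 0.29 against PBS (adjusted p = 0.00023). Msn, the gene of the related linker moesin, rose by 0.11 between the fluids (211.3 ± 2.86 against 195.98 ± 1.71 FPKM, adjusted p = 0.0339). This Msn call held in 9 of 20 alternatives and was lost when any 1 library of either fluid was left out, at adjusted p of 0.0902, 0.0749 and 0.0895 without control PF 1, 2 and 3 and 0.0599, 0.111 and 0.111 without TNBS PF 1, 2 and 3. Under quantile normalization it was 0.06 (adjusted p = 0.227). In PBS Msn stood at 205.4 ± 6.98 FPKM, and unlike Ezr it was not called in TNBS PF against PBS (0.04, adjusted p = 0.38). In control PF against PBS the Msn value was −0.07 (adjusted p = 0.29). Spp1 encodes osteopontin, a further CD44 ligand, and was the most abundant gene of the lists, at 1256 ± 31.5, 1414 ± 45.7 and 1340 ± 58.98 FPKM in PBS, control PF and TNBS PF. Its rise in control PF against PBS (0.17, adjusted p = 0.0365) held in 8 of 20 alternatives. It was lost at 0.142, 0.122, 0.0968, 0.0519, 0.0602 and 0.0505 when control PF 1 or 2, PBS 1, 2 or 3, or TNBS PF 3 was left out, and the value was 0.10 (adjusted p = 0.16) under quantile normalization.

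Mmp9 and Mmp14, proteases that can shed CD44, and Cd74 were lower in TNBS PF than in PBS. Mmp9 measured 4.07, 3.87 and 4.25 FPKM in PBS, 2.74, 2.45 and 2.85 in control PF and 3.06, 2.32 and 2.08 in TNBS PF. Mmp9 fell by 0.46 in control PF (adjusted p = 0.0178) and by 0.55 in TNBS PF (adjusted p = 0.0013) against PBS. The former held in 15 of 19 alternatives and was lost at adjusted p of 0.0568, 0.0701 and 0.0702 without control PF 1, control PF 2 and PBS 3. Cd74, which forms a receptor complex with CD44, stood at 1.43 ± 0.186 FPKM in PBS, 0.779 ± 0.126 in control PF and 0.67 ± 0.0404 in TNBS PF. Cd74 reached an FPKM of 1 in every PBS library and in no library with fluid. It thus passed the filter only through the group where it was high, which limits what its calls show. Cd74 fell by 0.45 in control PF against PBS (adjusted p = 0.0119, 0.0323 without the filter and 0.0515 without control PF 2). It fell by 0.54 in TNBS PF against PBS (adjusted p = 0.0007, and 0.00312 without the filter). Adding 1 to the FPKM shrinks the log2 fold change of a gene this low. With 0.1 added in its place the 2 values were −0.80 and −0.98, on TPM −0.71 and −0.87, and by voom −0.85 and −1.07. The settings with 0.1 and voom kept the same filter, so their values carry the same limit. Mmp14 fell by 0.18 in TNBS PF against PBS (32.4 ± 0.719 against 36.9 ± 1.04 FPKM, adjusted p = 0.00339). Adam10, of the same list of CD44 partners and sheddases, fell by 0.13 there (47.1 ± 0.932 against 51.8 ± 0.977 FPKM, adjusted p = 0.00929). Its call was not followed under all alternatives. Adam17 stood at −0.13 (adjusted p = 0.0617) and was called lower there by voom.

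**Figure D3:**
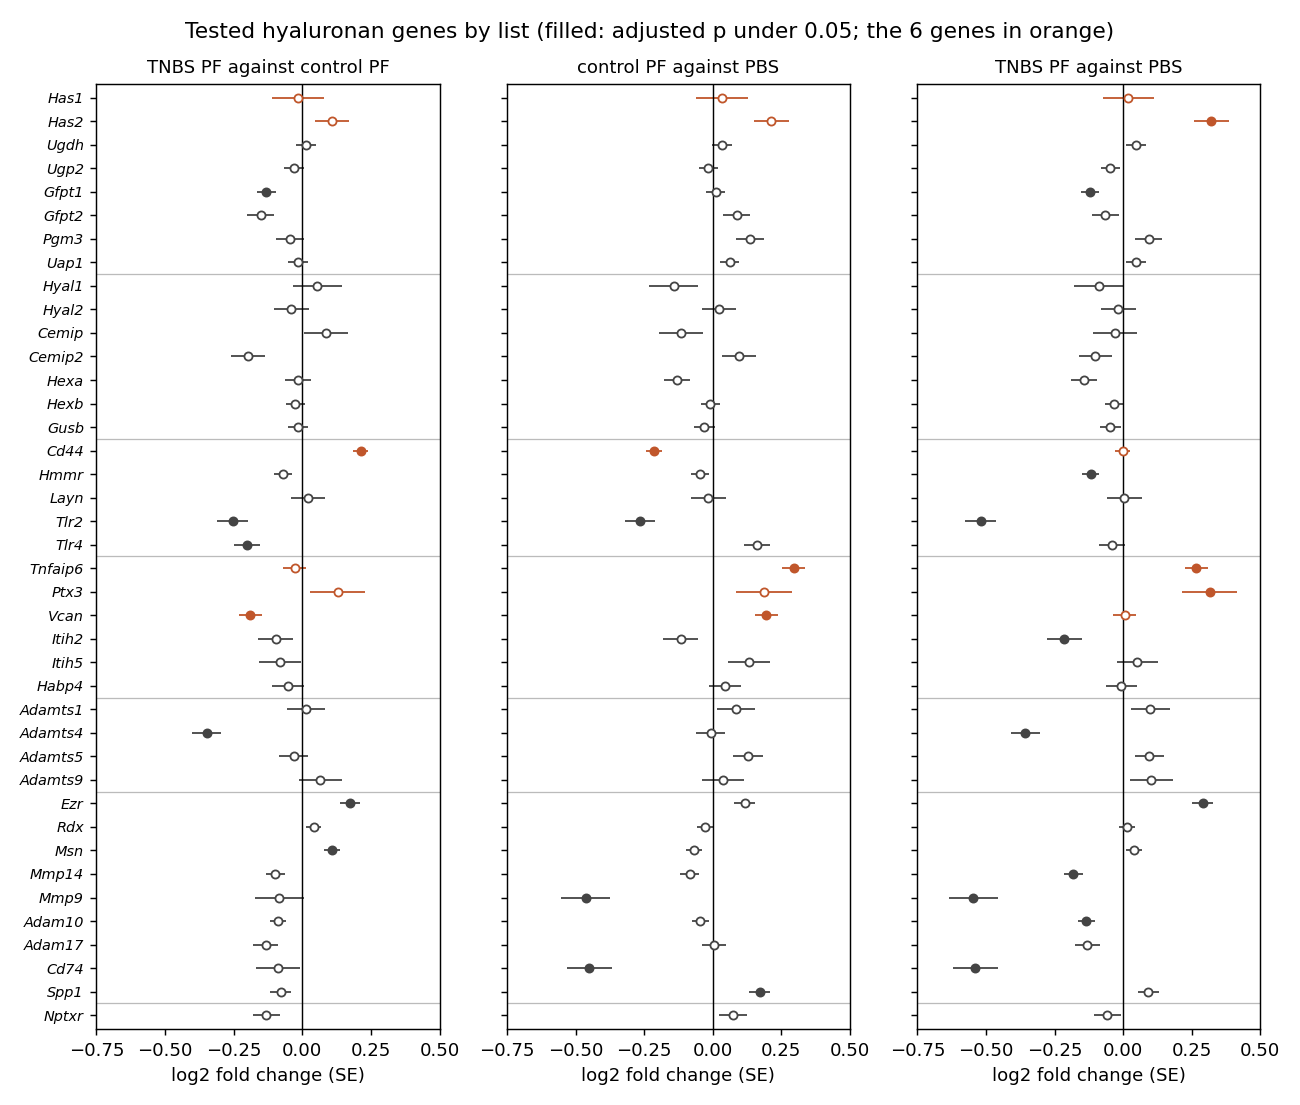
Log2 fold change of FPKM + 1, with its standard error, of the 40 tested genes of the 7 lists in the 3 comparisons; lines separate the lists, the 6 genes are in orange, and filled points had an adjusted p under 0.05. Tlr2, Mmp9 and Cd74 lay furthest to the left in TNBS PF against PBS (−0.52, −0.55 and −0.54) and Has2 and Ptx3 furthest to the right (both 0.32). Cd74 passed the filter only through its PBS values.

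In the annotation deposited beside the values, 24 genes carried the term hyaluronic acid binding, Tnfaip6, Cd44 and Vcan among them, and 9 of the 24 were tested. Of these 9, 2 rose and 1 fell in TNBS PF against control PF, 2 and 1 in control PF against PBS, and 2 and 2 in TNBS PF against PBS. Over all tested genes, 5.15% rose and 5.45% fell in the first of these comparisons, 1.02% and 1.14% in the second, and 7.8% and 8.88% in the third. The calls of the term in control PF against PBS were all of members, Tnfaip6 and Vcan higher and Cd44 lower. Between the fluids Cd44 was among those that rose and Vcan was the 1 that fell, and Tnfaip6 was among those that rose in TNBS PF against PBS. These counts thus repeat the member calls and are no separate result about the term. The term ovarian cumulus expansion was given to 4 genes, including Tnfaip6 and Ptx3, all of them tested. By limma, 2 of the 4 passed as higher with TNBS PF than with PBS, Tnfaip6 and Ptx3, beside 7.8% of all tested genes, and the Ptx3 call was lost in 14 of 20 alternatives.

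Genes with the most similar pattern were sought by Pearson correlation of log2(FPKM + 1) over the 9 libraries, whose depth differed with the group, among tested genes with an established symbol. Closest to Tnfaip6 were Csnk1g2 (r = 0.974), Hmgb3 (0.957) and Rtkn2 (0.951), the last with means of 3.45, 4.19 and 4.18 FPKM in PBS, control PF and TNBS PF. Has2 was closest to Riox1 (0.978), Phtf2 (0.969) and Gnb1 (0.968). For Cd44 the closest were Gtf2h1 (0.985), Trmt6 (0.966) and Oxr1 (0.957), and Gtf2h1 had means of 21.9, 18.2 and 21.7 FPKM in the same order of groups. Vcan was most like Jtb (0.972), Ap4m1 (0.943) and Ano8 (0.942). Lower values were found for Ptx3, with Tuba4a (0.939), Rgs20 (0.937) and Rps7 (0.933), and for Has1, with Usp5 (0.918), Zfp952 (0.895) and Htatsf1 (0.887). None of the 6 genes was among the 3 closest of another. With only 3 kept for each from so many candidates, this does not show whether the 6 varied together.

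The authors' deposited table gives its own log2 fold changes and unadjusted p-values. For Tnfaip6 the authors' deposited table has 0.31 (p = 0.000323) in control PF against PBS and 0.30 (p = 0.000386) in TNBS PF against PBS. Cd44 has −0.22 (p = 3.21e-09) in control PF against PBS and 0.23 (p = 2.14e-14) between the fluids in the authors' deposited table. For Vcan the authors' deposited table lists 0.21 (p = 2.52e-05) and −0.18 (p = 4.6e-05) in the same 2 comparisons. The largest value of the 6 genes in the authors' deposited table is that of Has2 in TNBS PF against PBS, 0.39 (p = 1.39e-05). For Ptx3 between the fluids the authors' deposited table gives 0.15 with p = 0.00325, where limma gave 0.13 with an unadjusted p of 0.222.

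**Figure D4:**
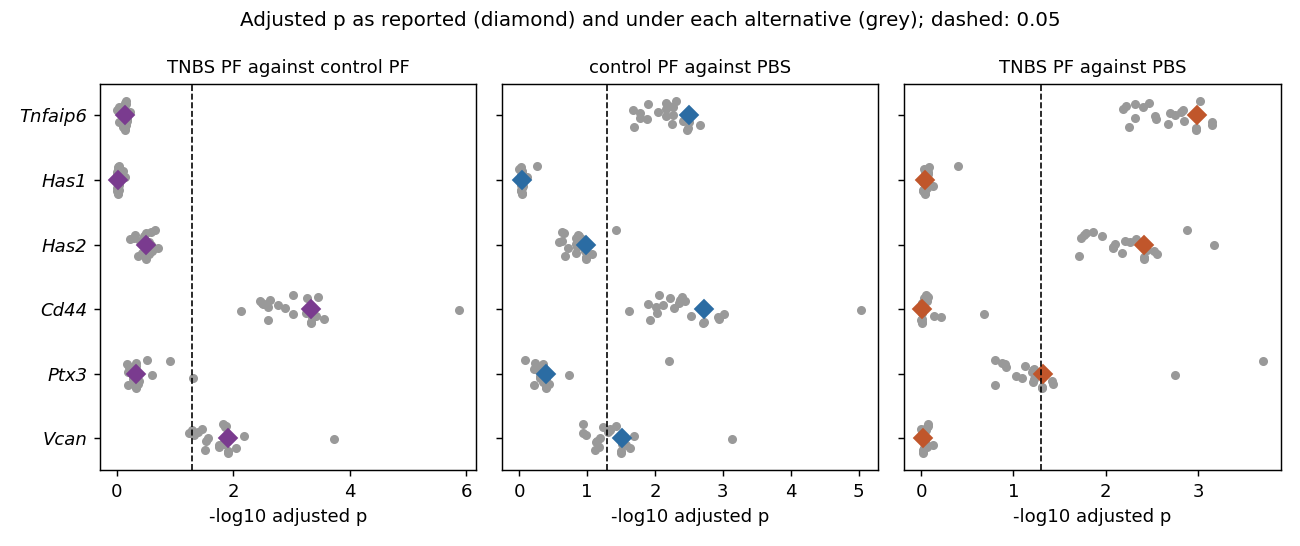
Adjusted p of each of the 6 genes on a −log10 axis as reported (diamonds) and under each alternative setting (grey points), with the threshold of 0.05 as a dashed line. All points of Tnfaip6 lay past the line in both comparisons with PBS and all points of Cd44 in both comparisons with control PF, whereas Vcan in control PF against PBS and Ptx3 in TNBS PF against PBS lay on both sides.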

How the data were processed

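RNA of 9 libraries, 3 per group, was sequenced by the submitters. Trizol-extracted RNA, 3 µg per library, was used, per the labels' protocols. The submitters' processing notes name cutadapt 1.15 for trimming and mm10 as the build. No source used here gives the aligner, counting program or strand. Gene values were deposited by the authors as FPKM, 1 column per library, per the file headers. The authors also deposited log2 fold changes and p-values for each pair of groups, per the file headers, from a test that the sources used here do not name; these were copied and not used in any fit.

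From here on values were computed anew. FPKM were transformed as log2(FPKM + 1), so that fold changes of low genes are understated, while folds given as "1.24-fold" are ratios of mean FPKM. The 10537 genes that reached an FPKM of 1 in 3 or more libraries entered 1 model of all 9 libraries in limma 3.58.1 (R 4.3.3) with a mean-variance trend. Tests were two-sided, with Benjamini-Hochberg adjustment over all tested genes in each comparison and a threshold of 0.05. The procedure was tested on simulated data. Those data had the same small spread beyond counting for every gene, so they do not cover genes as variable as Ptx3 in PBS. Fragments were recovered from FPKM and GENCODE M21 exon lengths, available for 21902 genes, and 97.2 to 97.3% of values under 1000 fragments were whole within 0.01. They give the depth and the counting errors. Gene positions are from GENCODE M21 and promoters from RefSeq (GRCm38.p6), both of the mm10 build, with 5 of 6 members matched.

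The members, gene lists and motifs were chosen with earlier results of these data known. Named genes are all 6 members, up to 4 called genes per list and comparison, by largest absolute log2 fold change, and the 3 genes most correlated with each member. Ugdh, Hyal2, Cemip2, Has3, Adam10, the genes named as under the filter or not called, and the marker genes stand outside that rule and were chosen after their values were seen.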

Additional observations from a re-analysis of the deposited data

How the results depend on the processing

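Of 357 values of the 6 genes under alternatives, 313 kept direction and side of the threshold, 25 lost a call, 3 gained one and 16 changed sign, all 16 of the last in comparisons that were not called. Unchanged in every alternative were the calls of Tnfaip6, of Cd44 and of Has2 against PBS in TNBS PF. Vcan in control PF against PBS was 0.20 with adjusted p of 0.0774 without the filter, 0.0725 with only the 2 groups and 0.0716 without the trend, and 0.19 (adjusted p = 0.0662) on TPM. Ptx3 in TNBS PF against PBS was 0.32 in the same 3 settings (adjusted p = 0.157, 0.0798 and 0.0942), 0.30 on TPM (0.062) and 0.31 under quantile normalization (0.0599). Ptx3 in TNBS PF against control PF was 0.13 (adjusted p = 0.0496) with only the 2 groups. Signs changed for Vcan (−0.016 on TPM) and Cd44 (0.018, median-ratio scaling) in TNBS PF against PBS and Has1 between the fluids (0.016, quantile). The cause was not tested.

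The replicate numbers are not stated to pair libraries. Deviations of same-numbered libraries correlated at −0.0978 to 0.0746, against −0.075 to 0.0776 for differently numbered ones. These ranges showed no common pattern by number, but with 3 libraries per group they cannot exclude a small shared effect. With the number as a replicate block, Vcan in control PF against PBS was 0.20 (adjusted p = 0.0649) and Ptx3 in TNBS PF against PBS 0.32 (adjusted p = 0.0578), no other member call changed, and 906, 169 and 1537 genes were called against 1117, 227 and 1758.

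Genes called in control PF against PBS numbered 103 without the filter, 117 without the trend and 374 by limma voom on recovered fragments. Of the hyaluronan list genes, members included, 7 of 40 were called there, where 227 of 10537 tested genes were. Without the filter 3 of 61 list genes were called (103 of 16193 tested genes). Without the trend it was 4 of 40 (117 of 10537), and with the replicate block 4 of 40 (169 of 10537). Leaving out 1 library gave 660 to 1254, 115 to 301 and 1148 to 1737 genes called and 3 to 10, 2 to 7 and 9 to 13 list genes in TNBS PF against control PF, control PF against PBS and TNBS PF against PBS. Leave-one-out log2 fold changes in TNBS PF against control PF were −0.23 to −0.16 for Vcan and −0.075 to 0.041 for Has1. In control PF against PBS they were 0.16 to 0.24 for Vcan, 0.16 to 0.28 for Has2, 0.056 to 0.34 for Ptx3 and −0.027 to 0.13 for Has1. In TNBS PF against PBS they were 0.19 to 0.47 for Ptx3, −0.043 to 0.12 for Has1, −0.010 to 0.011 for Cd44 and −0.017 to 0.019 for Vcan. Median-ratio scaling split the calls between the fluids into 680 higher and 442 lower, against 543 and 574, and those in TNBS PF against PBS into 1048 and 760, against 822 and 936, while TPM gave 606 and 1160. With a mean FPKM of at least 5 Has1 was not tested.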
